A study of Homo sapiens with 14 samples.

Results

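The potassium channel genes described here are the 96 protein-coding genes whose symbol begins with KCN followed by a letter, out of 22410 genes with a usable transcript in the files. They were chosen by symbol alone, with subunits and regulators kept and 13 non-coding KCN RNAs left out, and the transcript with the highest mean FPM stood for each gene. Polyadenylated RNA was sequenced from 293 Flip-In T-REx cells, a line derived from human embryonic kidney that holds a single integration site for a transgene, in a series designed to look for off-target editing. The 14 libraries form 7 groups of 2. The SA1Q+gRNA, SA1Q and SA1+gRNA cells carry a SNAP-tagged ADAR1 deaminase, the SA2Q+gRNA, SA2Q and SA2+gRNA cells carry a SNAP-tagged ADAR2 deaminase, and the ctrl cells carry the empty vector. The Q marks an enzyme with a glutamine in place of a glutamate, and +gRNA marks cells that were given a guide RNA. No group holds SA1 or SA2 without a guide, or the empty vector with one. The sources used here do not give the guide's target, any induction of the transgene or the number of clones behind each line. The series design names 2 biologically independent experiments. The p-values rest on the spread between the 2 libraries of a group, estimated over all 7 groups together.

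Potassium channels let potassium ions flow down their electrochemical gradient and so pull the membrane potential toward negative values. Voltage-gated Kv channels open on depolarization, inward rectifiers (Kir) carry current best at negative potentials, tandem-pore (K2P) channels carry a leak at rest, and a further class opens on intracellular calcium or sodium. Silent Kv subunits form no channel alone but join Kv2 subunits, and auxiliary proteins set the gating or surface level of the pore-forming ones. 293 cells are widely used to express cloned ion channels because their own currents are small.

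Pore-forming subunits share a stretch of the pore loop, the selectivity filter, in which most of them have a glycine-tyrosine-glycine run that lines the path of the ion. The coding sequence around it is shown for the leak and silent genes with the highest level of their class and for genes whose levels the comparisons below turn on. Capitals mark the 3 filter codons, and each run is 51 bases on the coding strand, read from GENCODE transcripts on GRCh38.
KCNK1: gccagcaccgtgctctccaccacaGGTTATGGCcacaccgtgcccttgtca
KCNG1: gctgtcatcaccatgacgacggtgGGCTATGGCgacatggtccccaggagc
KCND1: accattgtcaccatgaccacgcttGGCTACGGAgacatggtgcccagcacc
KCNJ14: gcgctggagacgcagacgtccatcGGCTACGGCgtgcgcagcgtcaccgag
KCNJ12: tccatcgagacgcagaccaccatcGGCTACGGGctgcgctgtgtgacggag
KCNJ18: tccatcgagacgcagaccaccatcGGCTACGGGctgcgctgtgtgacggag

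The KCNG1 run lies at chr20:51004279-51004329 on the minus strand, in exon 3 of 3, and that of KCNJ14 at chr19:48462145-48462195 on the plus strand, in exon 2 of 3. In KCNK1 and KCND1 an intron interrupts the run. KCNK1 has it at chr1:233614502-233614526 and chr1:233666595-233666620 (plus strand, from exon 1 of 3) and KCND1 at chrX:48969151-48969176 and chrX:48967082-48967106 (minus strand, from exon 1 of 6). The KCNJ12 run (chr17:21415751-21415801) and the KCNJ18 run (chr17:21703195-21703245), both on the plus strand, are the same 51 bases. Over their whole coding sequences of 1299 nt, KCNJ12 and KCNJ18 differ at 13 bases, an identity of 99.0%. Their transcripts also overlap on hg19, the build of the files, so fragments from the part they share may not be told apart. The pair is counted below as 2 members that are not independent.

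The filter codons were sought in frame, on the coding strand, in the longest complete coding sequence of each gene. The pattern ACNNNNGGNTANGGN, which adds the threonine codon before the filter, occurred in 59 of the 79 pore-forming or silent KCN genes (74.7%), in none of the 17 auxiliary genes, and in 126 of 19456 protein-coding genes (0.648%). The shorter pattern GGNTANGGN, which the longer contains, occurred in 64 of the 79 (81.0%) and in 1320 of all protein-coding genes (6.78%). All members of the Kv1, Kv2, Kv3, Kv4, Kv7 and silent Kv classes held the longer pattern, against 11 of 15 K2P genes, 13 of 16 Kir genes, 3 of 8 calcium- and sodium-activated genes and none of the 8 EAG, ERG and ELK genes. KCNJ14 held the shorter pattern without that threonine codon.

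Library totals ran from 43.0 to 130.1 M fragments. Every count of SA1+gRNA replicate 2, the deepest library, was even, and halved its total is 65.1 M. SA1Q+gRNA replicate 1 and ctrl replicate 1 stood apart from the other 12 libraries along the first principal component of all tested genes, which took 24.7% of the variance. Within these groups the log2 difference of replicate 2 minus replicate 1 followed transcript length across genes, with Spearman's rho of 0.376 in SA1Q+gRNA and 0.370 in ctrl, against -0.186 to 0.0313 in the other groups. The SD of that difference over genes was 0.479 in SA1Q+gRNA and 0.496 in ctrl, against 0.292 to 0.332 in the other groups. A spread estimated over all groups together can thus be too small for SA1Q+gRNA and ctrl. The transgenes followed the labels. ADAR was at 184 ± 20.1 FPKM in SA1Q+gRNA, 164 ± 1.54 FPKM in SA1Q and 227 ± 18.7 FPKM in SA1+gRNA, against 48.5 ± 3.50 FPKM in ctrl (SD, n = 2 each). ADARB1, which encodes ADAR2, was at 165 ± 0.288 FPKM in SA2Q+gRNA, 144 ± 14.1 FPKM in SA2Q and 139 ± 1.66 FPKM in SA2+gRNA, against 4.73 ± 0.795 FPKM in ctrl. Of the marker lists, the epithelial genes summed to 288 to 376 FPKM per library (4 of 5 at 1 FPKM or more), the embryonic kidney genes to 15.2 to 18.5 FPKM (3 of 5) and the neuronal lineage genes to 58.3 to 86.5 FPKM (5 of 8). The blood genes summed to 35.6 to 53.5 FPKM (2 of 5), the glial genes to 2.35 to 3.97 FPKM (1 of 4), the fibroblast genes to 1.02 to 1.67 FPKM (1 of 5) and the muscle genes to 0.487 to 1.36 FPKM (0 of 6). No marker was at 0 in all libraries.

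Potassium channel transcripts were mostly scarce in these cells, and the detectable ones came from several classes rather than from a dominant channel. Levels here are TMM-scaled FPKM, that is, fragments scaled to transcript length and library size, so they can be compared between genes. Of the 96 genes, 24 averaged at least 1 FPKM over the 14 libraries, a level reached by 12528 of 22410 genes (55.9%) in the whole transcriptome. A further 23 lay from 0.1 to 1 FPKM and 49 under 0.1 FPKM. No member was at 0 in all libraries, but 31 had no fragment in at least 1 library. All members together summed to 75.4 FPKM, with single libraries between 70.6 FPKM (SA1+gRNA replicate 2) and 81.7 FPKM (SA2+gRNA replicate 1), and the 10 highest held 56.2% of the sum. Among the 24 genes at 1 FPKM or more, the coefficient of variation over the 14 libraries ran from 5.61% to 38.6%, with a median of 13.99%.

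**Figure D1:**
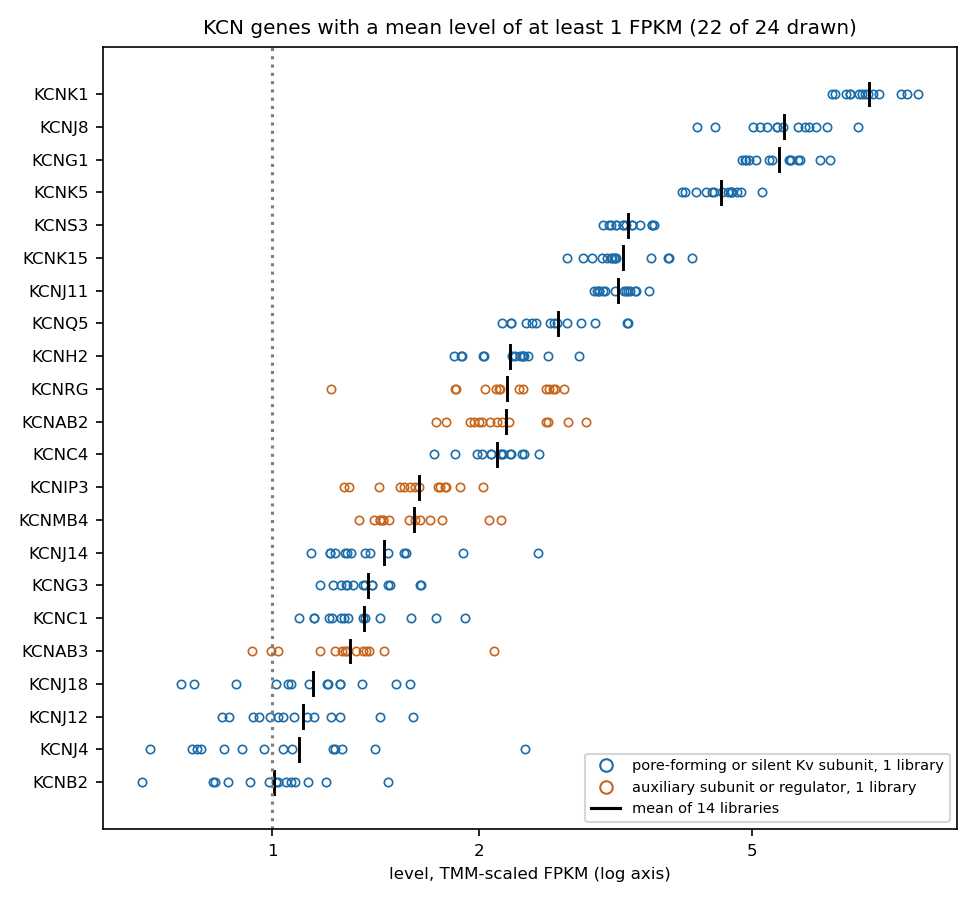
Levels of 22 of the 24 KCN genes that averaged at least 1 FPKM, in TMM-scaled FPKM on a log axis, with a point for each of the 14 libraries and a bar at their mean. KCNK1 lies highest at a mean of 7.39 FPKM, and the spread over libraries widens toward KCNJ4, KCNJ18 and KCNB2 at the bottom.

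The K2P leak channels held 21.6% of the summed level, the largest share of any class. KCNK1, which encodes the weakly rectifying leak channel TWIK-1, was the most abundant member, at 7.39 FPKM on average, with a lowest library of 6.54, a median of 7.25 and a highest of 8.72 FPKM. KCNK5, which encodes the pH-sensitive TASK-2 known from kidney tubules, averaged 4.50 FPKM (3.96 to 5.16 FPKM over libraries). KCNK15 averaged 3.25 FPKM (2.69 to 4.08 FPKM), and part of its reads may belong to RIMS4, which overlaps it on the opposite strand. The other 12 K2P genes averaged under 1 FPKM, 9 of them under 0.1 FPKM.

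Inward rectifiers held 18.5% of the sum, led by the pore subunits of ATP-sensitive channels. KCNJ8 averaged 5.57 FPKM (4.16 to 7.13 FPKM) and KCNJ11, the pore subunit of the ATP-sensitive channel of pancreatic beta cells, averaged 3.18 FPKM (2.94 to 3.54 FPKM). Their sulfonylurea receptor partners were lower, with ABCC8 at 0.234 FPKM and ABCC9 at 0.00983 FPKM. KCNJ14, KCNJ18, KCNJ12 and KCNJ4, which encode strong inward rectifiers, averaged 1.45, 1.15, 1.11 and 1.09 FPKM. Rectifiers known from the kidney were near the floor, with KCNJ10 at 0.0760 FPKM, KCNJ1 at 0.0390 FPKM and KCNJ16 at 0.00560 FPKM, and these 3 were chosen after their values were seen.

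Among voltage-gated channels the Kv7 class was the most abundant, with 13.7% of the sum. KCNQ5, which encodes a subunit of the M-current that restrains firing in neurons, averaged 2.61 FPKM (2.16 to 3.30 FPKM). The Kv3 genes KCNC4 and KCNC1, which encode fast channels of rapidly firing neurons, averaged 2.12 and 1.36 FPKM. KCNH2, which encodes the cardiac hERG channel, was the sole EAG, ERG or ELK gene above 1 FPKM, at 2.22 FPKM (1.84 to 2.79 FPKM). Kv1 and Kv4 genes all averaged under 1 FPKM, with KCNA3, the Kv1 channel of T lymphocytes, at 0.725 FPKM and the Kv4 gene KCND1 at 0.753 FPKM. The KCNA3 level was that of a non-coding transcript of the gene. KCNA1, whose mRNA is a known recoding target of ADAR2, averaged 0.0703 FPKM.

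Summed as a class, silent Kv subunits were more abundant than KCNB2, which encodes one of the Kv2 subunits they are known to join. KCNG1 averaged 5.48 FPKM (4.84 to 6.48 FPKM), KCNS3 3.30 FPKM (3.03 to 3.59 FPKM) and KCNG3 1.38 FPKM (1.17 to 1.65 FPKM). Of the other silent genes, 1 averaged from 0.1 to 1 FPKM and 6 averaged under 0.1 FPKM, all below KCNB2. The 10 silent genes summed to 10.5 FPKM, while KCNB2 averaged 1.01 FPKM. In each library the silent sum was above the KCNB2 level, since the lowest silent sum was 9.65 FPKM and the highest KCNB2 level 1.48 FPKM.

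Auxiliary subunits and regulators held 15.8% of the sum. KCNRG, a regulator that interferes with Kv channel assembly, averaged 2.20 FPKM but overlaps DLEU2 and TRIM13. KCNAB2 and KCNAB3, beta subunits of Kv1 channels, averaged 2.19 and 1.30 FPKM, and KCNAB2 overlaps NPHP4 on the opposite strand. KCNIP3, a calcium-binding partner of Kv4 channels, averaged 1.64 FPKM and KCNMB4, a beta subunit of the large-conductance calcium-activated (BK) channel, 1.61 FPKM. The BK pore gene KCNMA1 itself was at 0.719 FPKM, or at 0.317 FPKM when its longest transcript stood for it. No calcium- or sodium-activated pore gene averaged 1 FPKM or more.

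**Figure D2:**
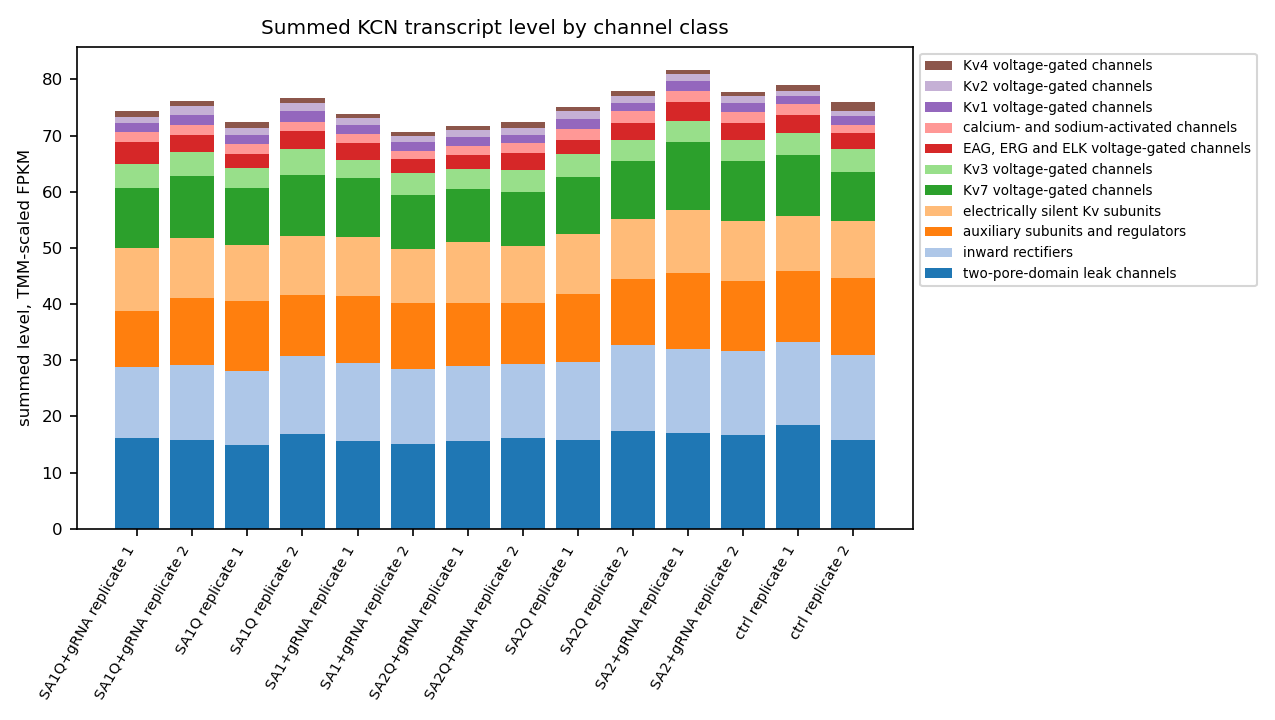
Summed level of the KCN genes in each of the 14 libraries, in TMM-scaled FPKM, stacked by channel class from the class with the highest mean sum at the bottom to that with the lowest at the top. The total lies between 70.6 and 81.7 FPKM. The order of the layers is the same for all libraries, and K2P channels have the largest sum and inward rectifiers the next largest in every library.

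Differences between groups were tested with edgeR's quasi-likelihood test over all 16418 genes that passed a filter on low counts, with Benjamini-Hochberg adjustment per comparison, and a gene was called at an adjusted p under 0.05. Of the members, 63 of 96 were tested (65.6%, against 73.3% of all genes). The 33 others, left out by the filter, all averaged under 0.1 FPKM, and none had more than 95 fragments over the 14 libraries. Differences in them were not tested in this fit. In bulk RNA, fewer cells with a transcript and less of it per cell cannot be told apart. The 6 comparisons with ctrl share its 2 libraries and are given side by side.

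KCND1, which encodes a Kv4 channel of the fast-inactivating A-type (hg19 chromosome X, 48818639 to 48828251, minus strand), was the member that fell in the deaminase cells with the wild-type ADAR2 enzyme. Its level was 0.856 and 0.713 FPKM in SA1Q+gRNA, 0.789 and 0.791 FPKM in SA1Q, 0.571 and 0.626 FPKM in SA1+gRNA, 0.700 and 0.821 FPKM in SA2Q+gRNA, and 0.686 and 0.669 FPKM in SA2Q. It was 0.578 and 0.513 FPKM in SA2+gRNA, against 0.956 and 1.27 FPKM in ctrl. Both ctrl libraries lay above all 12 libraries of the other groups, and the lowest values were those of SA2+gRNA and SA1+gRNA. In SA2+gRNA against ctrl the log2 difference was -1.04 (SE 0.17, 95% interval -1.41 to -0.67, adjusted p = 0.0262). KCND1 was the only call among the 63 members there, 0 higher and 1 lower, where 0.104% of all genes were called and 0.0365% were called lower. DESeq2 also called KCND1 alone there, and 0.767% of all genes.

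In the other 5 comparisons with ctrl KCND1 was not called. Its log2 difference was -0.89 in SA1+gRNA (SE 0.17, adjusted p = 0.0753), -0.72 in SA2Q (SE 0.17, adjusted p = 0.166), -0.56 in SA2Q+gRNA (SE 0.16, adjusted p = 0.283), -0.52 in SA1Q+gRNA (SE 0.17, adjusted p = 0.164) and -0.50 in SA1Q (SE 0.17, adjusted p = 0.111), all by edgeR. Over the 7 groups together, a test for any difference called KCND1 (adjusted p = 0.0408) and no other member, where 1.57% of all genes were called. DESeq2 called 6 members (KCNAB2, KCNC1, KCND1, KCNJ12, KCNJ14 and KCNMB4) in that test and 8.14% of all genes. The edgeR call held without SA1Q+gRNA replicate 1, SA1Q+gRNA replicate 2 or ctrl replicate 1 and was lost without any of the other 11 libraries (adjusted p 0.0163 to 0.102 over the 14), and without ctrl replicate 1 the same test called 5 of 68 members (7.35%, against 2.65% of all genes), among them KCNAB3, KCND1, KCNJ12 and KCNJ14. The SA2+gRNA call was lost when SA2+gRNA replicate 1 was left out (log2 difference -1.12, adjusted p = 0.263), SA2+gRNA replicate 2 (-0.95, 0.166), ctrl replicate 2 (-0.82, 0.0967), SA1Q replicate 1 or 2 (0.0538 and 0.0540) or SA2Q replicate 1 or 2 (0.0580 and 0.0561). Without ctrl replicate 1, KCNAB3 was called beside KCND1 (0.0955% of all genes called). Without ctrl replicate 1 and SA1Q+gRNA replicate 1, the libraries that stood apart, KCND1 was called lower in all 6 comparisons with the 1 ctrl library left, by -1.23 to -0.69 on the log2 scale (adjusted p 0.00244 to 0.0451), while 1.54% to 7.32% of all genes were called.

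The known partners of Kv4 channels were described beside it. KCNIP2, a Kv4 partner in heart, was at 0.523 and 0.426 FPKM in SA2+gRNA, against 0.590 and 0.666 FPKM in ctrl, and its ctrl libraries also lay above the 12 others. It was not called in SA2+gRNA against ctrl (log2 difference -0.42, SE 0.23, edgeR adjusted p = 0.576). KCNIP3 was at 2.03 and 1.79 FPKM in SA2+gRNA, against 1.76 and 1.88 FPKM in ctrl, so the groups overlapped (log2 difference 0.07, SE 0.13, edgeR adjusted p = 0.908). KCNIP4 was at 0.545 and 0.460 FPKM in SA2+gRNA, against 0.676 and 0.426 FPKM in ctrl, which also overlapped (log2 difference -0.13, SE 0.28, edgeR adjusted p = 0.922). KCNIP1 averaged 0.0316 FPKM and was not tested. In SA2Q+gRNA, KCNIP3 was at 1.30 and 1.27 FPKM, below all other libraries. Its difference in SA2Q+gRNA against ctrl had the smallest p of any member there and was not called (log2 difference -0.50, SE 0.13, edgeR adjusted p = 0.220). DPP6 averaged 0.0206 FPKM and DPP10 0.00547 FPKM. The members with both ctrl libraries above all others were KCNC4, KCND1 and KCNIP2, 3 of 63 (4.76%) where 2.05% of all tested genes had this order. KCNG1 and KCNQ5 had both ctrl libraries below all others, 2 of 63 (3.17%), against 2.93% of all genes.

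**Figure D3:**
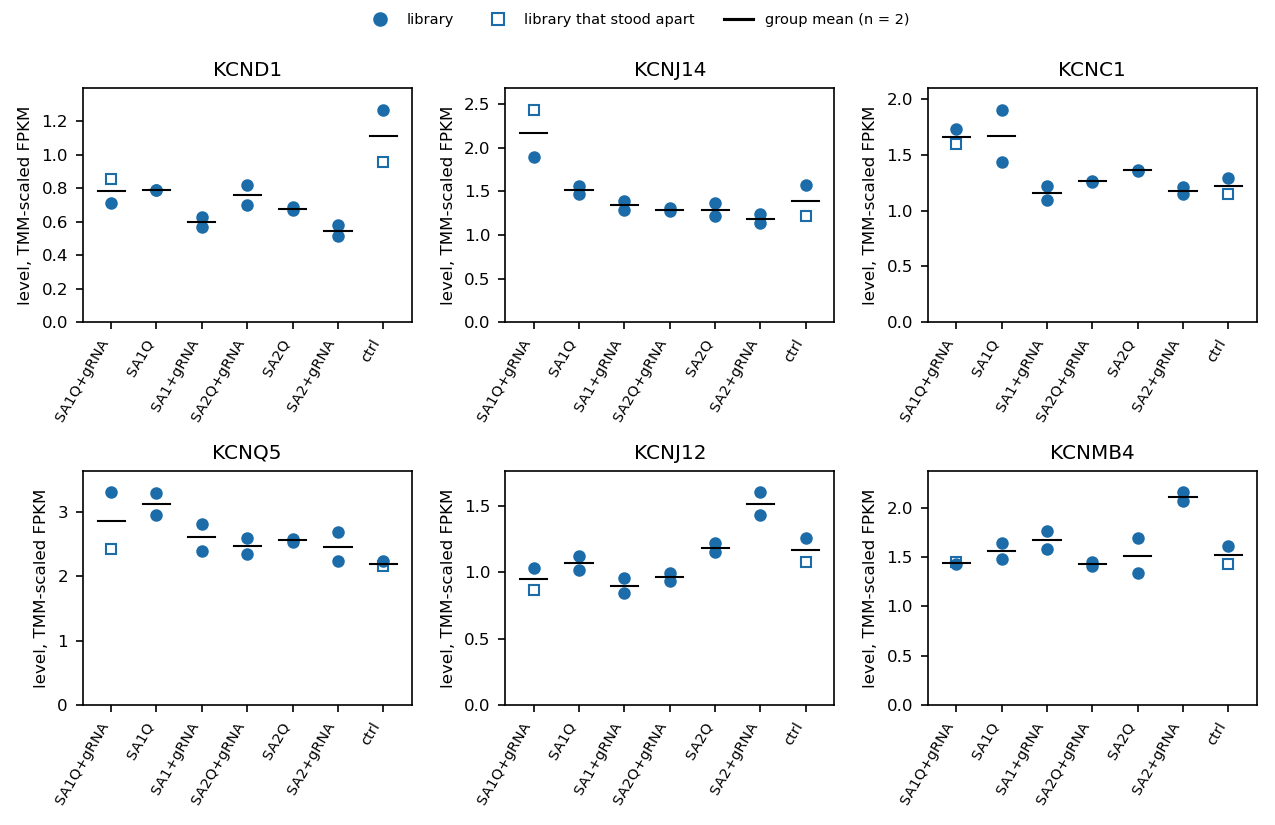
Levels of 6 KCN genes by group, in TMM-scaled FPKM on axes that start at 0, with a point for each library, an open square for the 2 libraries that stood apart and a bar at the group mean of 2 libraries. KCND1 is highest in ctrl, KCNJ14 in SA1Q+gRNA, KCNC1 in the SA1Q+gRNA and SA1Q libraries, and KCNJ12 and KCNMB4 in SA2+gRNA.

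KCNJ14, a strong inward rectifier gene (hg19 chromosome 19, 48958964 to 48969367, plus strand), was higher in the SA1Q than in the SA2Q cells when libraries with and without guide were pooled. It was at 2.44 and 1.90 FPKM in SA1Q+gRNA and 1.47 and 1.56 FPKM in SA1Q, against 1.30 and 1.28 FPKM in SA2Q+gRNA and 1.36 and 1.21 FPKM in SA2Q. The ctrl libraries, at 1.21 and 1.57 FPKM, overlapped those of SA1Q without guide. All 4 SA1Q-enzyme libraries lay above all 4 SA2Q-enzyme libraries, and the SA1Q+gRNA pair stood above every other library of the series. The log2 difference was 0.49 (SE 0.11, 95% interval 0.24 to 0.73, edgeR adjusted p = 0.0359). KCNJ14 was the only call among 63 members, 1 higher and 0 lower, where 2.75% of all genes were called and 1.03% were called higher, and 12 members had an unadjusted p under 0.05 (19.0%, against 16.8% of all genes).

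The highest KCNJ14 value came from SA1Q+gRNA replicate 1, a library that stood apart. Without that library alone the log2 difference was 0.40 and the call was lost (adjusted p = 0.0668). It was also lost without any 1 of the 8 SA2Q+gRNA, SA2Q, SA1+gRNA and SA2+gRNA libraries or of the 2 SA1Q libraries, with log2 differences of 0.45 to 0.53 and adjusted p from 0.0502 to 0.188. The call held without SA1Q+gRNA replicate 2 (0.58, adjusted p = 0.0177) and without ctrl replicate 1 or 2 (0.0188 and 0.0185), and with both of the outlying libraries removed the difference was 0.40 (adjusted p = 0.0222). In SA1Q+gRNA against SA1+gRNA, the same enzyme with and without the glutamine change, KCNJ14 was at 2.44 and 1.90 FPKM against 1.28 and 1.39 FPKM and was not called (log2 difference 0.68, SE 0.16, edgeR adjusted p = 0.0547).

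KCNC1, a Kv3 gene (hg19 chromosome 11, 17757495 to 17799377, plus strand), also had all 4 SA1Q-enzyme libraries above those of the SA2Q enzyme. It was at 1.59 and 1.73 FPKM in SA1Q+gRNA and 1.43 and 1.91 FPKM in SA1Q, against 1.27 and 1.26 FPKM in SA2Q+gRNA and 1.37 and 1.36 FPKM in SA2Q. It was at 1.09 and 1.22 FPKM in SA1+gRNA, 1.21 and 1.15 FPKM in SA2+gRNA and 1.15 and 1.29 FPKM in ctrl. It was the sole member with all 4 SA1Q-enzyme libraries above the other 10 (1.59% of 63, against 1.67% of all tested genes). None of its differences was called, the nearest being 0.35 in the SA1Q cells against the SA2Q cells (SE 0.09, edgeR adjusted p = 0.0671) and 0.52 in SA1Q+gRNA against SA1+gRNA (SE 0.13, edgeR adjusted p = 0.0727). In the SA1Q cells against the SA2Q cells KCNC1 was called when SA1Q+gRNA replicate 1 (with KCNQ5), SA1Q replicate 1, ctrl replicate 1 or ctrl replicate 2 was left out, fits that called 0.951% to 4.38% of all genes. With all libraries DESeq2 called KCNC1 and KCNJ14 in that comparison and 4.63% of all genes.

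No member was called in either comparison of an SA1Q group with ctrl, although these comparisons had more calls over all genes than the other comparisons with ctrl. In SA1Q against ctrl edgeR called 0 of 63 members and 2.8% of all genes, and 10 members had an unadjusted p under 0.05 (15.9%, against 21.2% of all genes), while DESeq2 called 3 (KCNAB2, KCNC1 and KCNQ5) and 6.18% of all genes. KCNQ5 was at 2.95 and 3.29 FPKM in SA1Q, against 2.16 and 2.23 FPKM in ctrl (log2 difference 0.51, SE 0.14, edgeR adjusted p = 0.0685), and it overlaps the antisense gene KCNQ5-AS1. KCNAB2 was at 2.12 and 1.73 FPKM in SA1Q, against 2.70 and 2.52 FPKM in ctrl (log2 difference -0.43, SE 0.13, edgeR adjusted p = 0.0750). The SA1Q and ctrl values of both genes did not overlap. Leaving out SA1Q+gRNA replicate 1 or SA1Q+gRNA replicate 2, which belong to neither group, called 3 of 68 members in each case (KCNAB2, KCNB2 and KCNQ5), or 4.41%, against 6.88% and 6.92% of all genes.

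In SA1Q+gRNA against ctrl, which sets the 2 libraries that stood apart on opposite sides, edgeR called 0 of 63 members and 1.04% of all genes. There 15 members had an unadjusted p under 0.05 (23.8%, against 13.9% of all genes), and DESeq2 called KCNAB2 and KCNJ14 and 2.83% of all genes. KCNJ14 was at 2.44 and 1.90 FPKM in SA1Q+gRNA, against 1.21 and 1.57 FPKM in ctrl (log2 difference 0.62, SE 0.16, edgeR adjusted p = 0.0798). Without both libraries that stood apart this difference was 0.27 (adjusted p = 0.524). KCNAB2 was at 1.97 and 1.79 FPKM in SA1Q+gRNA, against 2.70 and 2.52 FPKM in ctrl (log2 difference -0.48, SE 0.13, edgeR adjusted p = 0.0864). Leaving out SA1Q+gRNA replicate 1 called KCNB2 and 0.887% of all genes, and leaving out SA1Q+gRNA replicate 2 called KCNJ14 and 2.75% of all genes.

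Against ctrl, the SA2Q groups had fewer calls over all genes than the SA1Q groups. In SA2Q against ctrl edgeR called 0 of 63 members and 0.0853% of all genes, with 7 members at an unadjusted p under 0.05 (11.1%, against 8.86% of all genes) and 1 call, KCND1, by DESeq2 (0.554% of all genes). KCNA6, a Kv1 gene, came next to KCND1, at 0.759 and 0.670 FPKM in SA2Q, against 0.519 and 0.472 FPKM in ctrl (log2 difference 0.53, SE 0.18, edgeR adjusted p = 0.366). In SA2Q+gRNA against ctrl edgeR called 0 of 63 and 0.067% of all genes, with 7 members at an unadjusted p under 0.05 (11.1%, against 10.1%) and 0 calls by DESeq2 (0.615% of all genes). For the 24 members at 1 FPKM or more the median log2 difference was -0.03 in SA2Q and -0.09 in SA2Q+gRNA, against medians of 0.00 over all tested genes.

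Among cells with the wild-type ADAR1 enzyme, SA1+gRNA against ctrl gave 0 calls of 63 by edgeR and 0.0426% of all genes, with 10 members at an unadjusted p under 0.05 (15.9%, against 10.7%) and 1 call, KCND1, by DESeq2 (0.615% of all genes). KCND1 was also called there when SA1Q+gRNA replicate 1, SA1Q+gRNA replicate 2 or ctrl replicate 1 was left out (adjusted p 0.0298, 0.0299 and 0.0309, with 0.34%, 0.369% and 0.0656% of all genes called). KCNJ12 was at 0.846 and 0.957 FPKM in SA1+gRNA, against 1.08 and 1.26 FPKM in ctrl (log2 difference -0.37, SE 0.14, edgeR adjusted p = 0.385). The typical 95% interval of a member at 1 FPKM or more extended 0.30 to either side on the log2 scale in the comparisons with ctrl.

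**Figure D4:**
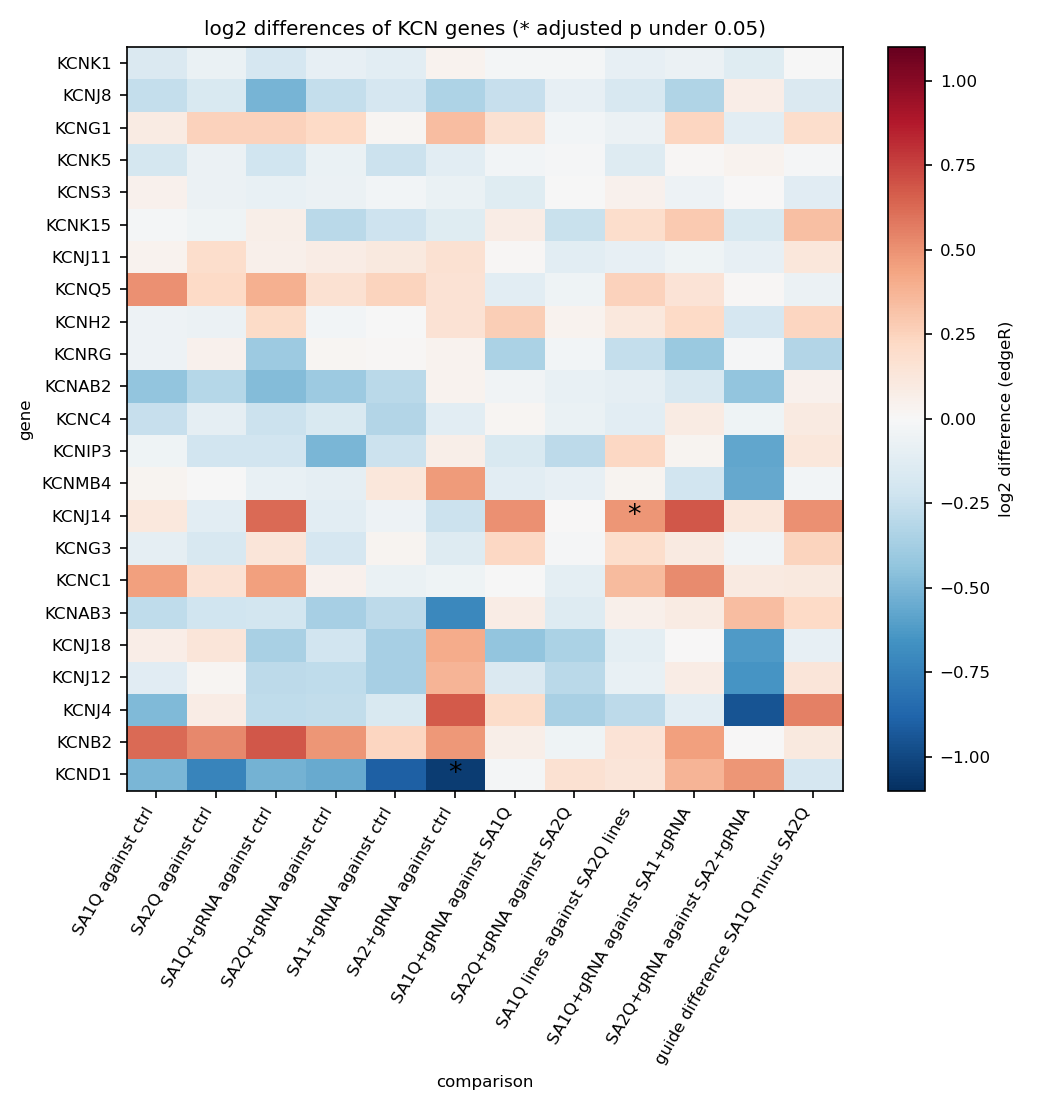
Log2 differences by edgeR for 22 of the 24 KCN genes at 1 FPKM or more and KCND1 (vertical axis, highest level at the top, KCND1 last) in 12 comparisons (horizontal axis), red where the first-named group is higher and blue where it is lower, with a star at an adjusted p under 0.05. Only KCND1 in SA2+gRNA against ctrl and KCNJ14 in the SA1Q lines against the SA2Q lines carry a star.

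Cells with the wild-type ADAR2 enzyme held the highest levels of 4 members, among them KCNJ12, KCNJ18 and KCNMB4, whose SA2+gRNA libraries lay above all 12 others (6.35% of 63, against 1.82% of all tested genes). KCNJ12 and KCNJ18 may share fragments, so they count as a single observation. KCNJ12 (hg19 chromosome 17, 21279699 to 21323179, plus strand) was at 0.994 and 0.938 FPKM in SA2Q+gRNA and at 1.60 and 1.43 FPKM in SA2+gRNA, against 1.08 and 1.26 FPKM in ctrl. KCNMB4 was at 1.45 and 1.41 FPKM in SA2Q+gRNA and at 2.16 and 2.07 FPKM in SA2+gRNA, against 1.44 and 1.61 FPKM in ctrl. Neither difference from ctrl was called by edgeR, with log2 differences of 0.37 (SE 0.14, adjusted p = 0.348) for KCNJ12 and 0.47 (SE 0.13, adjusted p = 0.220) for KCNMB4. KCNAB3 had the opposite order, at 0.936 and 0.997 FPKM in SA2+gRNA below all others (1.59% of 63, against 1.26% of all tested genes) and at 1.02 and 2.10 FPKM in ctrl.

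Set beside the wild-type enzyme, the ADAR2 enzyme with the glutamine change (SA2Q+gRNA against SA2+gRNA) gave 0 calls of 63 by edgeR, where 0.0122% of all genes were called. Unadjusted p was under 0.05 in 8 members (12.7%, against 7.86% of all genes), and DESeq2 called KCNJ12 and KCNMB4 and 0.268% of all genes. By edgeR, the log2 difference of KCNJ12 was -0.65 (SE 0.14, adjusted p = 0.187) and that of KCNMB4 was -0.56 (SE 0.13, adjusted p = 0.256). Without both libraries that stood apart, which belong to neither group, 3 of 65 members were called (4.62%, against 0.716% of all genes), these 2 genes among them (edgeR adjusted p = 0.0219 for KCNJ12 and 0.0404 for KCNMB4). For ADAR1, SA1Q+gRNA against SA1+gRNA gave 0 calls of 63 by edgeR and 0.962% of all genes, with 12 members at an unadjusted p under 0.05 (19.0%, against 17.4%), and DESeq2 called KCNC1 and KCNJ14 and 3.27% of all genes. KCNJ14 was called there when ctrl replicate 1 or 2 was left out (1.96% and 2.0% of all genes called), and without SA1Q+gRNA replicate 2 the calls were 3 of 68 members (KCNH5, KCNJ14 and KCNRG; 4.41%, against 12.4% of all genes).

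The guide RNA was not followed by a called difference in any member. In SA1Q+gRNA against SA1Q edgeR called 0 of 63 members and 0.0% of all genes, with 4 members at an unadjusted p under 0.05 (6.35%, against 12.2%) and 0 calls by DESeq2 (0.0% of all genes). KCNJ14 was at 2.44 and 1.90 FPKM in SA1Q+gRNA, against 1.47 and 1.56 FPKM in SA1Q (log2 difference 0.51, SE 0.16, edgeR adjusted p = 0.387). KCNA3, read from a non-coding transcript, was at 0.611 and 0.754 FPKM, against 0.884 and 0.904 FPKM (log2 difference -0.38, SE 0.17, edgeR adjusted p = 0.395). KCNH5 and KCNJ14 were called when SA1Q+gRNA replicate 2 was left out, which leaves the library that stood apart alone in its group (2.94% of 68 members, against 12.6% of all genes). KCNH5, an EAG channel gene, was at 0.234 FPKM in SA1Q+gRNA replicate 1 and 0.115 FPKM in ctrl replicate 1, while the 12 other libraries lay at 0.0317 FPKM or less.

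In SA2Q+gRNA against SA2Q edgeR called 0 of 63 members and 0.0% of all genes, with 2 members at an unadjusted p under 0.05 (3.17%, against 1.77%) and 0 calls by DESeq2 (0.0% of all genes). These were KCNIP3, at 1.30 and 1.27 FPKM in SA2Q+gRNA, against 1.61 and 1.53 FPKM in SA2Q (log2 difference -0.29, SE 0.13, edgeR adjusted p = 0.9997), and KCNJ12, at 0.994 and 0.938 FPKM, against 1.15 and 1.22 FPKM (log2 difference -0.30, SE 0.14, edgeR adjusted p = 0.9997). The difference between the guide effects of the SA1Q and SA2Q cells, tested as an interaction, gave 0 calls of 63 by edgeR, 0.0% of all genes, 2 members at an unadjusted p under 0.05 (KCNK7 and KCNJ14; 3.17%, against 5.66% of all genes) and 0 calls by DESeq2 (0.0% of all genes). For KCNJ14 it was 0.50 on the log2 scale (SE 0.23, 95% interval 0.02 to 0.99, edgeR adjusted p = 0.713). KCNK7 averaged 0.0943 FPKM, and its difference of 2.62 (SE 0.89, edgeR adjusted p = 0.713) rests on few fragments.

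The pair of libraries that stood apart held the highest values of 7 members (11.1% of 63, against 10.1% of all tested genes), which is near the background. Among them were KCNA1, KCNA2, KCNC2, KCNH5, KCNQ3 and KCNT1. KCNC2, KCNH5 and KCNQ3 passed the low-count filter only through this pair. In SA1Q+gRNA replicate 1 and ctrl replicate 1, KCNC2 had 12 and 13 fragments, KCNH5 36 and 19, and KCNQ3 17 and 21. The filter thus partly fixed the share of members, and can have done so over all genes. KCNJ11 was the sole member with both of these libraries below all others (1.59%, against 8.05%). Groups whose libraries lay outside all others in further members were SA1Q+gRNA, above in KCNH4, KCNJ14, KCNK10 and KCNK3 (6.35%, against 2.16% of all genes), SA2Q, below in KCNA1 and KCNF1 (3.17%, against 1.13%) and above in KCNK9 (1.59%, against 1.0%), SA2Q+gRNA, below in KCNIP3 and KCNS2 (3.17%, against 0.804%), and SA1Q, above in KCNA3 (1.59%, against 3.95%). Of these, KCNJ14, KCNIP3 and KCNA3 exceeded 0.5 FPKM on average, and the others lay under 0.31 FPKM.

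Proteins that work with potassium channels but carry another symbol were read from a list of 34 genes, of which 29 were tested. ATP1B3, a beta subunit of the sodium pump that builds the potassium gradient, averaged 87.9 FPKM. Calmodulin, the calcium sensor of Kv7 and small-conductance calcium-activated channels, was at 223 FPKM for CALM2 and 148 FPKM for CALM3. None of these 3 was called in any of the 13 tests.

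LRRC26, a gamma subunit that lets BK channels open at lower voltage, was at 2.17 and 2.78 FPKM in SA1Q, against 5.40 and 3.99 FPKM in ctrl. It fell in SA1Q against ctrl (log2 difference -0.92, SE 0.21, edgeR adjusted p = 0.0340) and was called in the test for any difference over the 7 groups (adjusted p = 0.0479). Its highest values were 6.76 and 5.52 FPKM, in SA2+gRNA. It was the sole call among the 29 tested partner genes in each of these tests (3.45%, against 2.8% of all genes in SA1Q against ctrl and 1.57% over the 7 groups), which is near the background.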

How the data were processed

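Per the labels' protocols, DNase-treated polyadenylated RNA was made into libraries with a strand-keeping kit and sequenced from both ends. The submitters' processing notes name STAR 2.4.2a, Trim Galore and the build hg19, with no role stated. The sources used here do not name the counting tool or its use of strand, so overlapping or near-identical genes are uncertain (18 of the 96 members overlap another gene). The deposited files gave, per the file headers, whole-number fragment counts for 46830 transcript rows, the FPM signal that the authors scaled to the library (used to choose transcripts), and FPKM that the authors scaled also to transcript size (used in an alternative).

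Of 45595 accessions, 44377 were named from a RefSeq table of GRCh38.p14, used for names, and 569 from GENCODE, 98.6% in all. The 887 rows without a name held 0.808% of counts and were left out, as were 2309 rows under 200 nt. The highest mean FPM chose the transcript of each gene, and for KCNA3, KCNK9, KCNMB3 and KCNN2 this was a non-coding transcript. The test was that of edgeR 4.0.16 under R 4.3.3, on counts (TMM, filterByExpr with a minimum count of 10, quasi-likelihood, two-sided) over all 14 libraries with 7 residual degrees of freedom. The common biological coefficient of variation was 8.67%. Levels are TMM-scaled CPM divided by transcript size in kb, and the SE is the absolute log2 difference divided by the square root of F. Script and test were checked on simulated data. These had the same spread in all groups and no outlying library, so the check does not cover the libraries that stood apart.

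Named members were those called in any of 13 tests, the 20 highest by level, and up to 2 with the smallest p where none was called, with the called and the 5 highest partner genes. Some genes and sequences under these rules are not reported here. Others were chosen after their values were seen, by class, by non-overlap or as partners. Members and lists were chosen with earlier results of these data known. Replicate numbers were not taken to pair the libraries (2 of 21 correlations of same-number deviations were over 0.1, and the highest was 0.444). Alternatives were DESeq2 1.42.0, no filter, a replicate block, a length offset, the longest transcript, leaving out libraries and, added after seeing the data, halved counts of SA1+gRNA replicate 2.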

Additional observations from a re-analysis of the deposited data

How the results depend on the processing

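In each comparison the alternatives followed the called members, or the 2 of smallest p where none was called. KCND1 was followed in every comparison with ctrl, and KCNJ12 and KCNJ14 also in the test over 7 groups. None of the log2 differences followed changed direction under any alternative run. Other differences given above were not followed in this way. Of 567 alternative values that were followed, 481 kept their side of the threshold, 54 gained a call and 32 lost one. Numbers of members called are given first for the comparisons with ctrl (of SA1Q, then SA2Q, then the same with guide, then SA1+gRNA and SA2+gRNA), then for the SA1Q against the SA2Q lines, SA1Q+gRNA against SA1+gRNA, SA2Q+gRNA against SA2+gRNA and the test over 7 groups. edgeR called 0, 0, 0, 0, 0, 1, 1, 0, 0 and 1. DESeq2 called 3, 1, 2, 0, 1, 1, 2, 2, 2 and 6. With no filter on low counts they were 1, 0, 0, 0, 1, 1, 1, 2, 0 and 5, and with the length offset 2, 0, 1, 0, 1, 1, 1, 2, 0 and 4. Without ctrl replicate 1 and SA1Q+gRNA replicate 1 together they were 3, 1, 2, 2, 2, 3, 3, 1, 3 and 9, with 1 library left in each of those groups, assumed to vary like the others. With the replicate block no member was called in any test (0). KCND1 in SA2+gRNA against ctrl was then at an edgeR adjusted p of 0.0519, and KCNJ14 in the SA1Q against the SA2Q lines at 0.0543. Whether the replicate numbers pair the libraries is uncertain. The longest transcript per gene and halved counts changed none of these counts. Leaving out each of the 14 libraries in turn gave 0 to 3, 0 to 0, 0 to 1, 0 to 0, 0 to 1, 0 to 2, 0 to 2, 0 to 3, 0 to 0 and 0 to 5, and 0 to 2 for SA1Q+gRNA against SA1Q. A library outside a comparison enters it only through the filter, scaling and spread that all groups share. Which of these moved a call was not tested, nor was the cause of the other changes. By FPKM as deposited 23 members averaged at least 1 FPKM, and by the longest transcript 24. The low-count filter kept 33 of the 49 members under 0.1 FPKM out of the tests, and 16 were tested.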
